A study of Mus musculus with 99 samples.

Results

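Genes of the complement system were followed across the series by 9 symbols in the count table: C1qa, C1qb, C1qc, C1ra, C1s1, C2, C3, C4b and Serping1, 9 of the 35870 genes counted. They were read in gastrocnemius, quadriceps and whole spinal cord of wild-type male C57BL/6 mice in 3 states. Mice aged 10 months were sedentary, and those aged 18 months were either sedentary or exercised. The labels do not say what the exercise was, and no other allele or agent is named for any group. In that order of states, cord and gastrocnemius each gave 10, 10 and 13 libraries, and quadriceps gave 10, 9 and 12. The mice had been perfused with saline before the tissues were taken, which bears on genes that blood cells carry.

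Complement is a protein cascade of innate immunity that tags surfaces for removal. In the classical pathway C1q, built from the A, B and C chains that C1qa, C1qb and C1qc encode, recognises antibody, dying cells or synapses and carries the proteases C1r and C1s. C1s cleaves C4 and C2, their fragments form an enzyme that cleaves C3, and the C3 fragments are bound by receptors of phagocytes, while C1 inhibitor, the product of Serping1, blocks C1r and C1s. In the central nervous system C1q is made mainly by microglia, and in peripheral tissues by macrophages, while C1r, C1s and C1 inhibitor are also products of fibroblast-like cells.

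The genes lie on 4 mouse chromosomes, given here in GRCm38 as RefSeq places them, with strands and exon overlaps from the GENCODE M21 annotation. The C1q chains form a cluster on chromosome 4, with C1qb at 136880126 to 136886200, C1qc at 136889801 to 136892936 and C1qa at 136895916 to 136898844, all on the minus strand. C1ra (124512621 to 124523440, plus strand) and C1s1 (124530344 to 124542392, minus strand) are neighbours on chromosome 6. C4b (34728139 to 34743902) and C2 (34862602 to 34882100) lie in the major histocompatibility region of chromosome 17, C3 at 57203967 to 57228136 of the same chromosome, and Serping1 at 84765360 to 84775444 of chromosome 2, all on the minus strand. Some members have near copies. Of the 50-base windows of C1ra transcripts 48.0% also occur in C1rb, of those of C1s1 21.8% in C1s2, and of those of C4b 34.6% in C4a, so reads could be divided between copies. C1rb was at most 0.069 TPM in any library, C1s2 at most 0.585 and C4a at most 1.77. In C2, 1656 of 3872 exon bases are shared with Gm20547 on the same strand and 161 with Zbtb12 on the opposite strand, and in C1s1, 576 of 3129 with the antisense gene Gm16567. In the counts as deposited C2 has a length of 2644 bases, so the gene models counted can differ from these. Reads from overlapping genes cannot be told apart here, since the use of strand in counting is not given in the sources used here.

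Library depth, as the total count, was between 29.06 and 62.77 M. Every member had at least 58 counts in every library, and all 9 passed the filter on low counts in every fit. Marker lists for the tissues went with the labels: 10 myofibre genes summed to at least 179336 CPM (counts scaled to a common library total) in each muscle library and at most 701 CPM in any cord library, and 10 neuronal genes to at least 4528 CPM in each cord library and at most 18.7 CPM in muscle. Cord library 3.1, of the 10-month group, stood apart in the members themselves. Tests of age and of marker lists in cord were also run without it. A library is named here by its title's number, whose meaning the labels do not state. P-values measure the spread between these libraries, since the labels do not say that each is a separate mouse. Numbers beginning with 1 to 3 occur only at 10 months, so a litter or cage behind them could not be told apart from age.

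The members were not equally abundant, and their order differed between tissues. Levels between genes are compared in TPM, a share of a library's transcripts that corrects for gene length. In cord the C1q chains led, with medians over 33 libraries of 180 TPM for C1qa, 179 for C1qb and 149 for C1qc. C4b followed at 92.4, Serping1 at 83.9 and C3 at 41.3 TPM. C1s1 (6.83 TPM), C2 (6.71) and C1ra (4.56) were the lowest. In gastrocnemius Serping1 led at 84.7 TPM, followed by C3 at 35.1, and the C1q chains lay between 24.4 and 29.2. C1s1 reached 24.4 TPM there, C1ra 8.28, C4b 7.50 and C2 2.26. Quadriceps resembled gastrocnemius, with Serping1 at 83.2 TPM, C3 at 42.4, C1s1 at 24.9, the C1q chains at 21.9 to 26.5, C4b at 8.60, C1ra at 8.50 and C2 at 2.91. C1q and C4 transcripts thus stood at the top of the cord list, and the C1 inhibitor and C3 at the top of the list in both muscles.

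**Figure D1:**
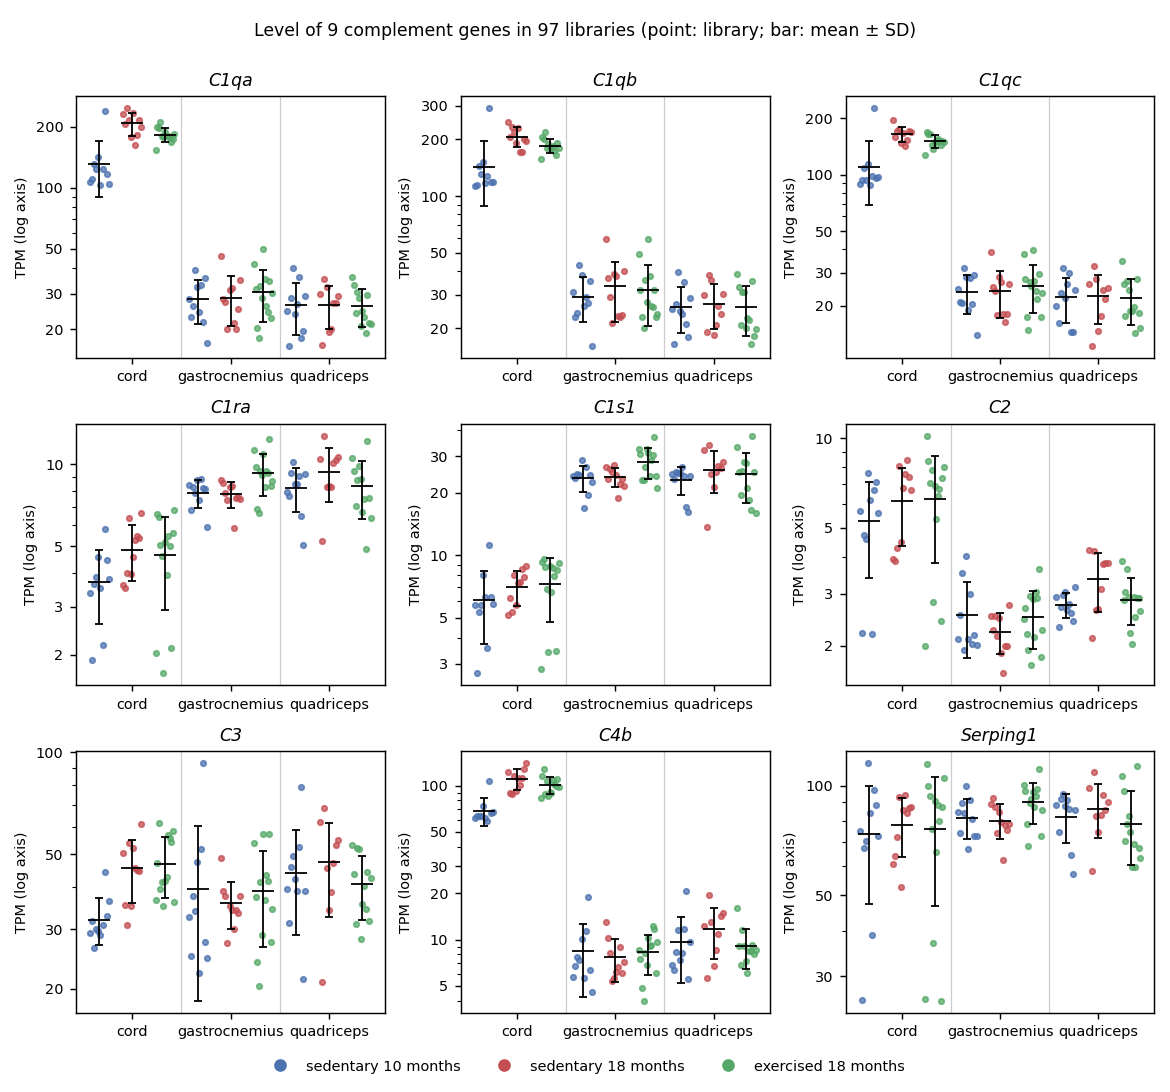
TPM of the 9 complement genes in the 97 libraries (log axis), 1 panel per gene, with cord, gastrocnemius and quadriceps from left to right and the 3 groups of each tissue in colour; points are libraries and bars the mean ± SD. The C1q chains and C4b are higher in cord than in either muscle, C1s1 is lower, and 1 library of the 10-month cord group lies far above the other 9 for the C1q chains.

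In sedentary spinal cord, transcripts of C1q, C4 and C3 were higher at 18 than at 10 months, while those of the C1 proteases, C2 and the C1 inhibitor did not pass the test. Levels within a tissue are given as CPM with trimmed-mean (TMM) scaling, and tests are edgeR's quasi-likelihood F test with Benjamini-Hochberg adjustment over all genes of the tissue. Called higher were 5 of the 9 members (C1qa, C1qb, C1qc, C3 and C4b) and none was called lower. Of all 18956 genes tested in cord, 5.35% were called and 2.82% were called higher. That background moves with the libraries: 407 to 1892 genes were called with 1 library left out, beside 1015 with all, and 252 with only the compared groups. The members' median log2 fold change was 0.53, beside 0.01 over all genes tested. In whole tissue, more cells of a type and more RNA per cell cannot be told apart.

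C1qa, the A chain, lay between 37.4 and 88.9 CPM at 10 months (median 45.4) and between 59.2 and 109 CPM in sedentary mice at 18 months (median 81.1). The ranges overlapped through cord library 3.1 alone, at 88.9 CPM, since the other 9 libraries of 10 months reached 55.1 CPM at most. The log2 fold change was 0.71 ± 0.11 (SE, adjusted p = 0.000177), a 1.63-fold rise. C1qb, the B chain, went from a median of 45.8 CPM (41.4 to 106) to 76.5 CPM (61.4 to 100), a change of 0.56 ± 0.12 (adjusted p = 0.00670). C1qc, the C chain, went from 37.1 CPM (34.1 to 86.8) to 65.7 CPM (53.5 to 78.0), a change of 0.61 ± 0.11 (adjusted p = 0.00126). For each of the 3 chains all 10 libraries of 18 months lay above the 10-month median, and library 3.1 was the highest of its group.

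The chains rose together, and promoter sequences are given for the chains that the RefSeq promoter table (GRCm38.p6) holds, C1qb and C1qc, and for C1ra, which did not pass the test. Each runs from 250 bases before to 50 bases after the annotated start on the gene's strand, and capitals mark a match to GAGGAA, the core recognised by the myeloid factor PU.1, or to TTCNNNGAA, the gamma-activated site of STAT factors. The windows are chr4:136886151-136886450 (minus strand), chr4:136892865-136893164 (minus strand) and chr6:124512371-124512670 (plus strand).
C1qb: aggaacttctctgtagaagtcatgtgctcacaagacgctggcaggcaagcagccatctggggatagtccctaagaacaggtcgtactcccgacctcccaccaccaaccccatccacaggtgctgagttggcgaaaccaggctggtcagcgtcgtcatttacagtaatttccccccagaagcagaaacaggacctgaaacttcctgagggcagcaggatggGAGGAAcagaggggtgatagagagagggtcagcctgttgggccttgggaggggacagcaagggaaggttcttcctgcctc
C1qc: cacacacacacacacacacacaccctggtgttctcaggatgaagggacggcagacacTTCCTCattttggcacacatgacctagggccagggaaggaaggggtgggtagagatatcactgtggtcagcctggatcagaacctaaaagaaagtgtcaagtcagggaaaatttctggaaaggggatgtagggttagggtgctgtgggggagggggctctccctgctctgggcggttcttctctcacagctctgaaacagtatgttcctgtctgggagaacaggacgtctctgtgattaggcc
C1ra: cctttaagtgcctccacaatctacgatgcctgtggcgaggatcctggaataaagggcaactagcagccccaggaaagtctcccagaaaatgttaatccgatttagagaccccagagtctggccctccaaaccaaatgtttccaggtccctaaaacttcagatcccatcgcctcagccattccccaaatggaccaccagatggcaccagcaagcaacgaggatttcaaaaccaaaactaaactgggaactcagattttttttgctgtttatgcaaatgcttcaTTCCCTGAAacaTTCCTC
C1qb has GAGGAA 30 bases before the start. C1qc holds the same letters on the opposite strand, printed as TTCCTC, 193 bases before the start, and C1ra holds them on the opposite strand 44 bases after the start, with TTCNNNGAA 32 bases after it. The windows of C1s1 and C3, also in the table, had no match to these motifs or to GAAANNGAA, the interferon-stimulated response element. Both strands were searched. Of 32851 promoters of 27025 genes, 28.3% hold GAGGAA, 8.3% TTCNNNGAA and 8.56% GAAANNGAA. A match is a string of letters, not a binding site.

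C4b, whose protein is cleaved by C1s to build the C3-cleaving enzyme, went from a median of 128 CPM (120 to 210) at 10 months to 227 CPM (187 to 265) in sedentary mice at 18 months. Cord library 3.1 was again the only one of 10 months inside the 18-month range, the other 9 reaching 150 CPM. The log2 fold change was 0.70 ± 0.08 (adjusted p = 8.13e-07), with all 10 libraries above the 10-month median. Its copy C4a, at 1.34 ± 0.158 TPM at 10 months and 1.27 ± 0.206 TPM at 18 months (SD, n = 10 each), had a log2 fold change of -0.05 (adjusted p = 0.782). C3, the protein on which all routes of complement converge, went from a median of 56.5 CPM (48.6 to 79.0) to 80.2 CPM (65.0 to 106). That was a change of 0.53 ± 0.10 (adjusted p = 0.00241), with all 10 libraries above the 10-month median and 7 above the whole 10-month range. The calls of these 5 genes held with each of the 33 cord libraries left out in turn, with C1qa between 0.65 and 0.84 and C4b between 0.66 and 0.78. They also held without libraries 5.2 and 6.1, which stood apart in the 18-month group, where C1qb had the largest adjusted p of the 5, 0.0316.

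The other members did not pass in this comparison. C1ra, the protease that activates C1s, had medians of 3.52 CPM (1.86 to 5.48) at 10 months and 4.75 CPM (3.42 to 6.21) at 18 months, a log2 fold change of 0.42 ± 0.20 (adjusted p = 0.183). C1s1 had 6.26 CPM (2.95 to 11.9) and 8.07 CPM (5.54 to 9.19), a value of 0.24 ± 0.20 (adjusted p = 0.443). C2, which with C4 forms the C3-cleaving enzyme, had 5.06 CPM (2.05 to 7.22) and 6.24 CPM (3.57 to 7.69), a value of 0.25 ± 0.24 (adjusted p = 0.520). Serping1 had 47.0 CPM (16.6 to 75.8) and 53.7 CPM (34.4 to 60.6), a value of 0.11 ± 0.23 (adjusted p = 0.780). For all 4 genes the groups overlapped widely, and the 95% intervals of these 4 changes reached 0.81, 0.63, 0.71 and 0.55, so that a rise of the size seen for C1qc lay inside the intervals of C1ra, C1s1 and C2.

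Some marker genes of cell types also differed between the same groups. Of 10 microglial markers 1 rose, the fractalkine receptor gene Cx3cr1 (log2 fold change 0.24, adjusted p = 0.00956), and the list's median was 0.08. Of 10 macrophage markers 2 rose, the lysosomal gene Cd68 (0.89, adjusted p = 7.67e-07) and Adgre1 (0.40, adjusted p = 0.0437). Of 10 astrocyte markers Gfap alone rose (0.42, adjusted p = 8.58e-06). In 10-month cord libraries other than 3.1 the summed level was 336 to 352 CPM for the microglial list and 120 to 147 CPM for the macrophage list. In sedentary mice at 18 months these sums were 342 to 424 and 151 to 184 CPM. Library 3.1 was at 506 and 239 CPM. Blood cell markers had positive fold changes with none called. The 6 red cell genes had a median of 1.63 and summed levels of 225 to 1045 CPM at 10 months and 147 to 11150 CPM at 18 months, the highest in library 6.1. The 8 neutrophil genes had a median of 0.40 and summed levels of 15.9 to 173 and 18.2 to 212 CPM. The part of blood cells in the members' values was not tested, and the 5 calls held without library 6.1.

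The members were then expressed relative to marker lists, as the difference between a gene's log2 CPM and the mean log2 CPM of the list, and compared with permutation tests over libraries. Of 56 such tests in cord and muscle 6 passed after adjustment over the 56, and all 6 were of 18 against 10 months in sedentary cord. Without the libraries that stood apart 15 passed, 8 of the 9 added ones in muscle with age, such as C1s1 relative to fibroblast markers in gastrocnemius (0.25, exact permutation test, adjusted p = 0.00128). Relative to microglial markers C1qa was higher by 0.64 (permutation test, adjusted p = 0.00224), C1qb by 0.51 (adjusted p = 0.0151), C1qc by 0.57 (adjusted p = 0.00224) and C3 by 0.43 (adjusted p = 0.00112). C4b was higher by 0.72 relative to astrocyte markers (permutation test, adjusted p = 0.00112) and by 0.75 relative to oligodendrocyte markers (adjusted p = 0.00187). In each of the 6 all 10 libraries of 18 months lay above the 10-month median. With library 3.1 left out, an alternative chosen after the data were seen, a further test passed, C1ra relative to astrocyte markers (0.46, permutation test, adjusted p = 0.0317). In cord C1ra, C1s1, C2 and Serping1 were not tested relative to the fibroblast list, with which they varied most closely (below). The value of C1ra therefore does not tell whether it changed relative to fibroblast-like cells.

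In exercised cord at 18 months the C1q chains and C4b had lower medians than in sedentary cord, but no member passed the test. C1qa lay between 59.7 and 84.2 CPM (median 67.0) in 13 exercised libraries, and 1 of them was above the sedentary median. The log2 fold change was -0.22 ± 0.10, with a 95% interval of -0.42 to -0.01 (p = 0.0462, adjusted p = 0.368). C1qb had a median of 66.1 CPM (60.0 to 84.9) and a value of -0.19 (adjusted p = 0.408), and C1qc 58.1 CPM (51.4 to 68.4) and -0.16 (adjusted p = 0.443). C4b had 199 CPM (171 to 246) and -0.15 (adjusted p = 0.371). For each of these 1 of the 13 libraries lay above the sedentary median. C3 had a median of 78.5 CPM (65.3 to 108) and a value of 0.02 (adjusted p = 0.934). By edgeR 0% of the 18956 genes tested were called in this comparison, 2565 had an unadjusted p under 0.05, and among the members that held for C1qa alone. The exercised libraries remained above 10-month cord: against the 10-month group C1qa was higher by 0.49 ± 0.11 (adjusted p = 0.00937), C1qc by 0.45 ± 0.11 (adjusted p = 0.0190), C3 by 0.55 ± 0.10 (adjusted p = 0.00127) and C4b by 0.55 ± 0.08 (adjusted p = 3.59e-05). Of all genes 1.51% were called and 0.981% called higher in that comparison. C1qb, at 0.37 ± 0.12 (adjusted p = 0.0932), did not pass by edgeR, passed by DESeq2 (adjusted p = 0.0440), and without library 3.1 it was at 0.55 (adjusted p = 7.37e-06). These comparisons share the 10-month or the sedentary 18-month libraries with the comparison of ages.

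**Figure D2:**
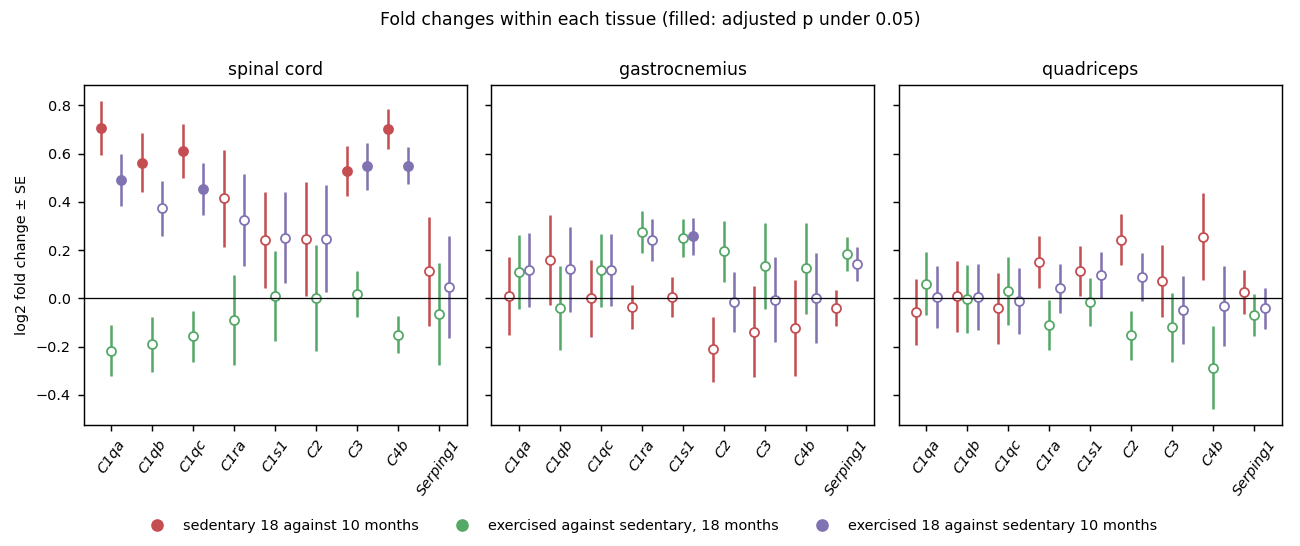
Log2 fold changes ± SE of the 9 genes within cord, gastrocnemius and quadriceps (vertical axis), for sedentary 18 against 10 months (red), exercised against sedentary at 18 months (green) and exercised 18 against sedentary 10 months (purple); filled points passed the adjusted threshold. Filled points are confined to C1qa, C1qb, C1qc, C3 and C4b in cord and to C1s1 in gastrocnemius.

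In the leg muscles no member passed the test between sedentary ages or between exercised and sedentary mice. Called were 0 of 9 members in each of these comparisons, beside 0.153% (ageing) and 0.106% (exercise) of 15027 genes in gastrocnemius and 0.352% and 0.757% of 14790 genes in quadriceps. C1qa in gastrocnemius had medians of 14.0 CPM (8.16 to 18.6) at 10 months, 13.2 (9.44 to 21.1) in sedentary and 15.05 (8.77 to 22.8) in exercised mice at 18 months. In quadriceps it had 12.6 (7.80 to 19.9), 13.1 (9.66 to 16.1) and 13.6 CPM (9.72 to 16.6). The ranges overlapped throughout, and its log2 fold change with age was 0.01 ± 0.16 in gastrocnemius and -0.06 ± 0.14 in quadriceps. C3 in gastrocnemius ran from 56.4 to 195 CPM at 10 months (median 76.2) and from 61.8 to 108 at 18 months (median 79.0), a value of -0.14 ± 0.19 (adjusted p = 0.846). C4b in quadriceps ran from 15.7 to 47.5 CPM (median 21.2) and from 18.2 to 46.8 CPM (median 29.8), a value of 0.26 ± 0.18 (adjusted p = 0.585). C2 in quadriceps had the one unadjusted p under 0.05 with age (0.24 ± 0.11, p = 0.0285, adjusted p = 0.347).

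In exercised gastrocnemius 8 of 9 members had positive fold changes against sedentary mice of the same age. Their median was 0.13, beside 0.004 over all genes tested. Quadriceps went the other way in the same comparison, with 2 of 9 members positive and a median of -0.07. C1ra went from a median of 9.35 CPM (7.47 to 10.5) to 11.4 CPM (8.08 to 15.3), with 11 of 13 exercised libraries above the sedentary median (0.28 ± 0.09, adjusted p = 0.144). C1s1 had medians of 32.9 CPM (27.3 to 36.2) and 38.3 CPM (30.7 to 51.6) and a value of 0.25 ± 0.08 (adjusted p = 0.144), and Serping1 63.6 CPM (53.4 to 73.6) and 74.7 CPM (56.5 to 91.1) and a value of 0.18 ± 0.07 (adjusted p = 0.236). With libraries 3.1 and 2.2 of the 10-month group left out of the fit, C1ra (0.28, adjusted p = 0.0485) and C1s1 (0.26, adjusted p = 0.0362) passed, where the calls among all 15027 genes went from 16 to 686. Beside this, all 10 fibroblast markers had positive fold changes in the same comparison, with a median of 0.33 and none called. The part of that list in the members' values was not tested beyond the relative values, of which none passed. Against 10-month gastrocnemius, exercised mice had more C1s1 (0.26 ± 0.08, adjusted p = 0.0407), the only member called, where 6.73% of all genes were called. That call was present in 22 of 33 fits with a library left out and absent without libraries 3.1 and 2.2 (adjusted p = 0.0999). In quadriceps the same comparison called 0 of 9 members and 11.1% of all genes.

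Between tissues, with TMM factors, the members separated into those higher in cord and those higher in muscle. For C2, C3 and Serping1 this depended on the scale, as given below. For this, 1 edgeR model was fitted to all 97 libraries, and cord was compared with the mean of both muscles in each state. All 9 members were called in each state, 4 higher and 5 lower, which is near the background: 92.1%, 91.8% and 92.8% of 19735 genes were called at 10 months sedentary, 18 months sedentary and exercised 18 months. Higher in cord were 53.9%, 54.0% and 54.7% of genes, and lower 38.2%, 37.8% and 38.0%. The median gene was itself higher in cord by 0.40, 0.40 and 0.39 on the log2 scale with TMM factors and by 1.54, 1.56 and 1.53 with library totals alone. Values are therefore given relative to that median, so that the shift between scalings drops out.

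Relative to the median gene, C4b was higher in cord by 1.03 at 10 months, 1.65 at 18 months sedentary and 1.60 at 18 months exercised. On the scale of all libraries C4b lay between 72.8 and 121 CPM in 10-month cord and between 14.9 and 62.8 CPM in 10-month muscle, with no overlap. The C1q chains were higher by 0.33 to 0.45 at 10 months, by 0.91 to 1.04 at 18 months sedentary and by 0.74 to 0.76 when exercised. At 10 months the lowest cord library had 22.4 CPM of C1qa and the highest muscle library 26.9, so the ranges overlapped on that scale. Before scaling they did not: over all groups C1qa had at least 1311 counts in cord, and at most 1080 in gastrocnemius and 785 in quadriceps. Its log2 fold change at 10 months, before the median was taken off, was 0.73 with TMM factors and 1.88 with library totals alone. At 18 months in sedentary mice cord ran from 34.6 to 62.0 and muscle from 12.2 to 27.0 CPM, with no overlap.

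The proteases of the C1 complex were the members most depleted in cord. C1s1 was lower by 3.87, 3.70 and 3.79 relative to the median gene, which is shown as -3.87, -3.70 and -3.79 in the plot of cord against muscle. At 10 months it lay between 1.79 and 6.84 CPM in cord and between 28.2 and 50.2 CPM in muscle. C1ra stood at -3.03, -2.70 and -2.85, C3 at -2.28, -1.74 and -1.71, and Serping1 at -2.08, -1.98 and -2.09. In TPM, a scale of its own, Serping1 had nearly equal medians in the 3 tissues, and C3 had higher means in cord (45.5 sedentary, 46.7 exercised) than in gastrocnemius (35.7 and 38.8) at 18 months. Quadriceps did not share this order: over all libraries the median of C3 was 41.3 TPM in cord, 35.1 in gastrocnemius and 42.4 in quadriceps. C2 was the smallest of these, at -0.93, -0.72 and -0.72, and at 18 months sedentary it was not called by DESeq2 (-0.29, adjusted p = 0.0567) or with RLE factors (-0.29, adjusted p = 0.0598). Its direction depends on the scaling: before the median was taken off it was -0.53, -0.32 and -0.33 with TMM factors and 0.62, 0.84 and 0.83 with library totals alone, and in TPM it was higher in cord. For C3 the values before that step were -1.88, -1.33 and -1.32 with TMM factors and -0.75, -0.18 (adjusted p = 0.225) and -0.16 (adjusted p = 0.210) with library totals alone.

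**Figure D3:**
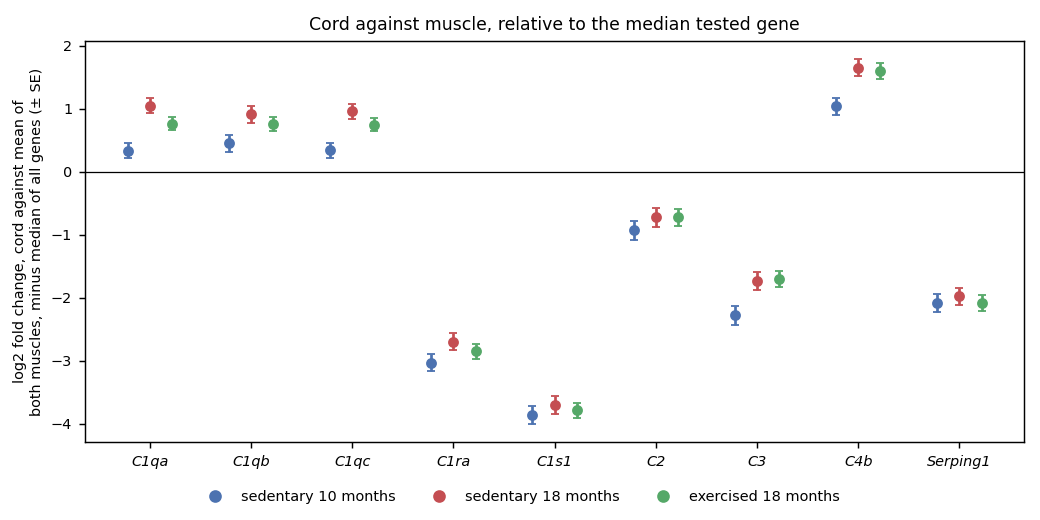
Log2 fold change of cord against the mean of both muscles, minus the median over all tested genes, ± SE, for each gene (horizontal axis) in the 3 states (colours). C4b and the C1q chains lie above 0 in each state, and C2, C3, Serping1, C1ra and C1s1 below 0, down to -3.87 for C1s1.

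Ratios between members, which no scaling between libraries can move, differed between tissues for some pairs and not for others. The ratio of C1qa to C1qc in TPM had means between 1.19 and 1.26 in all 9 groups, while those of C1qb to C1qc were 1.18 to 1.37 and those of C1qa to C1qb 0.882 to 1.04. The ratio of C1ra to C1s1 was 0.627 ± 0.0680, 0.688 ± 0.0668 and 0.639 ± 0.0663 in the 3 cord groups (SD, n = 10, 10 and 13). In muscle its group means were 0.326 to 0.365, and the highest muscle library, 0.436, lay below the lowest cord library, 0.504. C4b to C3 was 2.15 ± 0.223 in 10-month cord, 2.46 ± 0.270 in sedentary and 2.2 ± 0.297 in exercised cord at 18 months. In muscle its means were 0.214 to 0.247 and its highest value 0.299, below the lowest cord value of 1.82. C1qa to C1s1 was 23.3, 30.8 and 29.2 on average in the cord groups and 1.03 to 1.2 in the muscle groups.

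**Figure D4:**
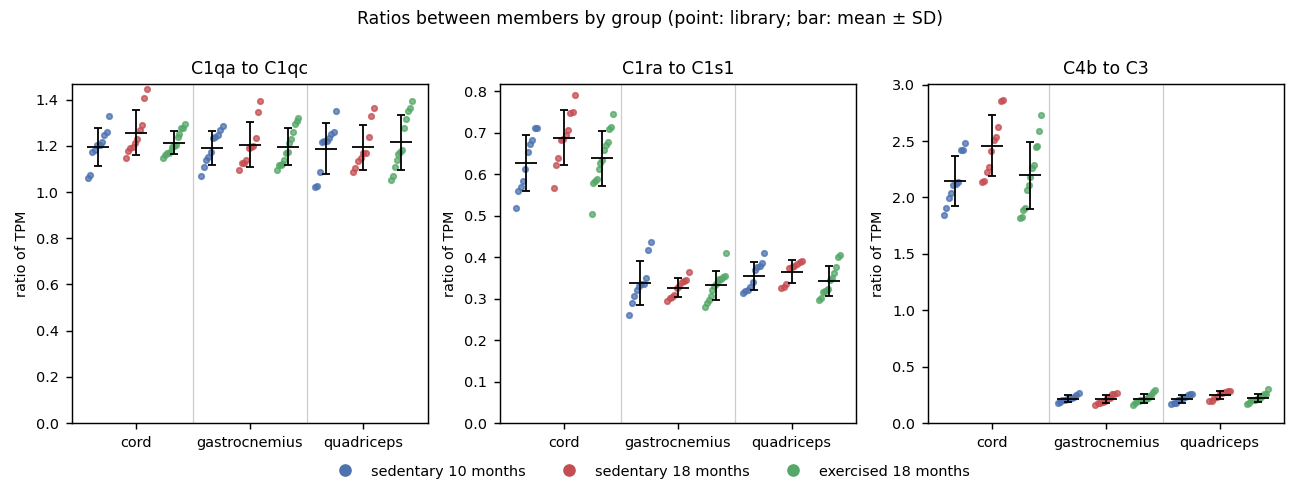
Ratios of TPM between C1qa and C1qc, C1ra and C1s1, and C4b and C3 in each library, by tissue and group; bars are the mean ± SD and the axes start at 0. The first ratio lies near 1.2 in all groups, while the ratios of C1ra to C1s1 and of C4b to C3 are higher in every cord library than in any muscle library.

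Whether the difference with age in cord exceeded that in muscle was tested as a contrast in the model of all libraries. C1qa (difference of log2 fold changes 0.71 ± 0.17, adjusted p = 0.0114) and C1qc (0.62 ± 0.17, adjusted p = 0.0347) passed, 2 of 9 members beside 2.61% of all genes. The call of C1qc was lost with library totals alone (0.62, adjusted p = 0.0551) and without the libraries that stood apart (0.61, adjusted p = 0.0537). That last fit still holds cord library 3.1. C4b (0.62 ± 0.20, adjusted p = 0.0691), C3 (0.54 ± 0.19, adjusted p = 0.0934) and C1qb (0.46 ± 0.19, adjusted p = 0.146) did not. C4b passed by DESeq2 (0.63, adjusted p = 0.0377) and with the title number as a replicate block (0.58, adjusted p = 0.0153). With cord library 3.1 left out, 4 passed: C1qa (0.84, adjusted p = 0.00149), C1qb (0.62, adjusted p = 0.0402), C1qc (0.78, adjusted p = 0.00288) and C4b (0.70, adjusted p = 0.0406). The exercise difference of cord against muscle was called for 0 of 9 members and 0.887% of all genes, with C1qa at -0.29 ± 0.16 (adjusted p = 0.354).

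The muscles differed from each other in C4b, C2 and C3, in sedentary mice of 18 months. There gastrocnemius was lower than quadriceps by 0.70 ± 0.17 for C4b (log2 fold change -0.70, adjusted p = 0.00192), by 0.72 for C2 (-0.72 ± 0.18, adjusted p = 0.00299) and by 0.50 for C3 (-0.50 ± 0.16, adjusted p = 0.0252). These are 3 of 9 members, beside 12.4% of all genes called and 6.43% called lower. C4b ran from 17.1 to 40.2 CPM in gastrocnemius (median 22.6) and from 24.6 to 63.7 CPM in quadriceps (median 40.5) on the scale of all libraries, with overlap. C1ra was at -0.38 ± 0.14 (adjusted p = 0.0537), and it passed by DESeq2 (adjusted p = 0.0467), with the replicate block (-0.39, adjusted p = 0.0383), without the libraries that stood apart (adjusted p = 0.0374) and with cord library 3.1 left out (adjusted p = 0.0493). The call of C3 was lost with library totals alone (-0.47, adjusted p = 0.0605). At 10 months 0 of 9 members passed (11.0% of all genes) and in exercised mice 0 of 9 (17.1%). With the replicate block in edgeR, C4b passed in exercised mice (-0.34, adjusted p = 0.0333). The difference between muscles was not shown to depend on age or exercise: of both contrasts 0% of genes passed, with 549 and 791 genes at an unadjusted p under 0.05.

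The members fell into sets that varied together between libraries of the same group. Each library's deviation from its group mean was correlated over the 33 cord or the 64 muscle libraries, and the 306 relations were tested by permutation with adjustment over all of them. In cord the C1q chains had r = 0.94 to 0.97 among themselves (rho 0.90 to 0.95). C1ra, C1s1, C2 and Serping1 formed another set, with r = 0.92 to 0.95 (rho 0.85 to 0.93, r = 0.88 to 0.94 without the 2 farthest libraries). The permutation p of each of these relations was 1e-05, the smallest that 100000 resamples can give, and the adjusted p was 5.46e-05. Between the sets r was lower, at 0.29 to 0.31 for the C1q chains with Serping1. C3 and C4b had r = 0.72 (rho 0.68, permutation, adjusted p = 0.000141), and C4b and C1qc r = 0.72 (rho 0.53, adjusted p = 0.00505, 0.53 without the 2 farthest libraries).

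The second set followed connective tissue markers in cord. Serping1 had r = 0.97 with the mean log2 level of the fibroblast list (rho 0.95), 0.93 with the Schwann cell list and 0.85 with the meningeal list, and C1ra, C1s1 and C2 had r = 0.92 to 0.94 with the fibroblast list (rho 0.86 to 0.87), each with an adjusted permutation p of 5.46e-05. With the macrophage list these 4 genes had r = 0.86 to 0.91. The C1q chains, in contrast, had r = 0.17 to 0.20 with the fibroblast list. The 5 cord libraries lowest in Serping1 were also the 5 lowest in C1ra, C1s1 and C2 and in the fibroblast list: 2 of the 10-month group and 3 of the exercised group. There Serping1 was 16.6 to 25.6 CPM and the fibroblast sum 399 to 534 CPM, while the other 28 libraries had at least 34.4 and 575 CPM. No sedentary library of 18 months was among them. These 5 libraries were singled out after their values were seen. Among the other 28 the 4 genes still had r = 0.69 to 0.86 with each other (rho 0.74 to 0.88) and r = 0.62 to 0.92 with the log2 summed fibroblast list (rho 0.66 to 0.86). The largest permutation p of these 10 relations, adjusted over the 10, was 0.000390. The part of such tissue in the results of these 4 genes was not tested. The C1q chains had r = 0.38 to 0.52 with the microglial list, which rested on 2 libraries: without the 2 farthest r was -0.10 to 0.09. In muscle the C1q chains had r = 0.82 to 0.90 with the macrophage list (rho 0.81 to 0.88) and 0.92 to 0.95 with each other, C3 and C4b r = 0.86 (rho 0.85), and C1ra and Serping1 r = 0.84 (rho 0.84), each with an adjusted permutation p of 5.46e-05.

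**Figure D5:**
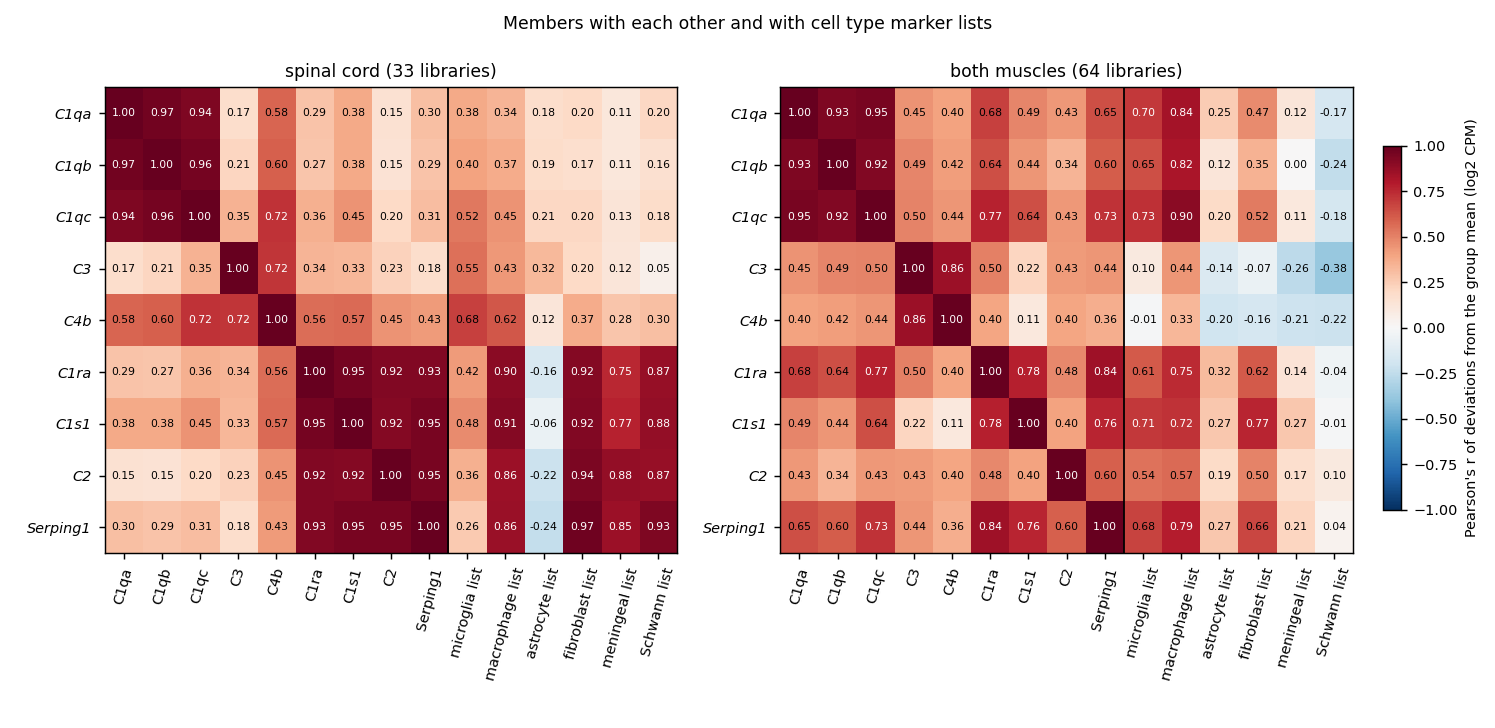
Pearson's r (colour, and number in each cell) of library deviations from the group mean in log2 CPM, between the 9 genes and between each gene and 6 marker lists, in 33 cord libraries (left) and 64 muscle libraries (right). In cord the C1q chains form 1 block (0.94 to 0.97) and C1ra, C1s1, C2 and Serping1 another (0.92 to 0.95). The latter block also runs with the fibroblast, macrophage, meningeal and Schwann cell lists.

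Among 13597 genes searched in cord, those most like each member were named by r of the same deviations, as a description. Neither rho nor r without the farthest libraries was taken here, so the part of cord library 3.1 in these values was not tested. C1qa was most like Ctsd, a lysosomal protease gene, Fcer1g, an Fc receptor subunit, and Ctsz (0.91 each). C1qb and C1qc were most like Pld4 (0.91 and 0.95), followed by Fcer1g (0.91 and 0.89). C4b was most like Csf1r, the receptor of the microglial growth factor CSF-1 (0.86), and C3 most like Gfap (0.76). Serping1 was most like Islr (0.99), Crispld2 (0.98) and the procollagen enhancer gene Pcolce (0.97), C2 most like Islr (0.95) and C1ra and C1s1 most like Crispld2 (0.95 and 0.94). Among 10849 genes in muscle, C1qa and C1qb were most like Cfp, the gene of properdin (0.87 and 0.89), and C1qc like Folr2, a macrophage folate receptor (0.87). C3 and C4b were both most like Cfb, complement factor B (0.78 and 0.71), and then Serpina3n (0.70 and 0.69), an acute-phase protease inhibitor gene. C1s1 was most like Fstl1 (0.84), and Serping1 like Folr2 (0.81).

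Other genes of the pathway gave a narrower picture with age in cord. Of 47 further complement genes, 35 were tested there, 3 rose and none fell, beside 2.82% of all genes called higher. All 3 were receptors of C3 fragments or their subunits, out of 8 receptor genes tested. Itgax, the alpha chain of complement receptor 4, went from 0.836 ± 0.422 to 2.87 ± 1.16 TPM (mean and SD of 10 libraries each), which is 1.81 ± 0.21 in log2 fold change (adjusted p = 5.30e-07). C3ar1, the receptor of C3a, went from 2.41 ± 0.714 to 3.68 ± 0.741 TPM, a change of 0.64 ± 0.13 (adjusted p = 0.00283), and Itgb2, the shared beta chain of complement receptors 3 and 4, rose by 0.53 ± 0.14 (adjusted p = 0.0219). Itgam, the alpha chain of complement receptor 3, was at 0.00 (adjusted p = 0.993). Among regulators 0 of 14 tested passed, with Clu (clusterin) at 0.17 (adjusted p = 0.0582) and Cd59a at 0.04. Of the lectin and initiation genes 0 of 7 passed, with the protease gene Masp1 at -0.15 (adjusted p = 0.0518). Of the alternative pathway genes Cfb was at 0.26 (adjusted p = 0.170) and Cfp at -0.01. With exercise 0 of 35 passed in cord, and in muscle 0 of 30 passed with age or exercise. Between exercised mice of 18 months and sedentary mice of 10 months 2 of 35 rose in cord (Itgax and C3ar1), 3 of 30 in gastrocnemius (among them Masp1 at 0.44 and Vsig4 at 1.04) and 4 of 30 in quadriceps (Colec11, Masp1, Cfd and Cd93). Of all genes 1.51%, 6.73% and 11.1% were called in these comparisons in either direction. Called higher were 186 of 18956, 515 of 15027 and 852 of 14790 genes. The rise of Itgax was larger in cord than in muscle (difference 1.54, adjusted p = 0.00244).

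Levels were also compared between tissues over libraries that carry the same number, as within-group deviations. Of 27 relations 3 passed on r and 0 on rho: C1s1 between gastrocnemius and quadriceps (r = 0.61, adjusted p = 0.0126, and rho = 0.55, adjusted p = 0.0549, by permutation, n = 31), C3 between the same muscles (r = 0.55, adjusted p = 0.0132, and rho = 0.48, adjusted p = 0.0611, by permutation, n = 31) and C4b between cord and gastrocnemius (r = 0.59, adjusted p = 0.0126, and rho = 0.49, adjusted p = 0.0549, by permutation, n = 33). Without the 2 farthest numbers r was 0.43, 0.44 and 0.39.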

How the data were processed

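Per the labels' protocols, Trizol RNA of perfused mice went into TruSeq RNA v2 libraries. The submitters' processing notes name STAR 2.5.2b and GRCm38.p5. For the counting program and strand use, the answer is not given in the sources used here. Counts as deposited are whole reads per gene, not normalized, and the deposited TPM were made by the authors from counts and gene lengths (recomputed within 0.0005). The tables held 97 of 99 labelled libraries; quadriceps 10.4 and 10.2 were not analysed here, so the fits held 97 libraries where the design counted 99. Total counts were 29.06 to 62.77 M, and the members had 58 to 13207 counts per library.

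Counts were fitted in edgeR 4.0.16 (R 4.3.3) and tested by its quasi-likelihood F test, with TMM factors and filterByExpr (minimum count 10, minimum total 15), per tissue with its 3 groups and over all tissues with 9 groups. A gene was called at an adjusted p under 0.05 over all genes tested. Standard errors come from the F statistic. Permutation tests used 100000 resamples, two-sided, and log2 CPM a pseudocount of 0.5. The fit of ageing in cord was tested on counts simulated from its own estimates of spread, and the other fits were not.

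The genes named are the 9 members, the called members of the pathway and marker lists, and the 3 genes most like each member whose mean log2 CPM was 1 or more. The members and lists were chosen with earlier results of these data known. Alternatives were DESeq2 1.42.0, RLE factors, library totals alone, no filter, only the compared groups, leaving out 5 libraries that stood apart (gastrocnemius 3.1 and 2.2, quadriceps 3.1, cord 5.2 and 6.1), each library in turn, and a block for the number. Leaving out cord library 3.1 in the fits across tissues and the marker tests was added after the data were seen.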

Additional observations from a re-analysis of the deposited data

Results flagged for a closer look

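In 54 tests for a library far from the others of its group, 1 per member and group of 4 to 10 libraries, 7 found one, where chance flags about 1 in 20. Members that vary together can flag the same library, so the 54 tests are not independent and 1 in 20 is only a rough guide. In 5 of the 7 it was cord library 3.1 of the 10-month group. It had 88.9 CPM of C1qa (the other 9 libraries 37.4 to 55.1), 106 CPM of C1qb (41.4 to 57.9), 86.8 CPM of C1qc (34.1 to 45.8), 79.0 CPM of C3 (48.6 to 62.7) and 210 CPM of C4b (120 to 150). Its marker sums were 506 CPM for microglia (others of 10 months 336 to 352), 239 CPM for macrophages (120 to 147), 27.5 CPM for adipocytes (6.41 to 9.77) and 22731 CPM for oligodendrocytes. Their part in the members' values was not tested. The libraries of the same number were also the highest of their 10-month group for C3 and C4b in gastrocnemius (195 and 43.2 CPM) and quadriceps (165 and 47.5 CPM).

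C1ra was low in gastrocnemius library 9.3 (sedentary, 18 months), at 7.47 CPM beside 8.84 to 10.5 in the other 9. C1s1 was low in quadriceps library 3.1 (10 months), at 21.4 CPM beside 28.9 to 37.1.

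The change with age differed between cord and muscle by 0.71 for C1qa and by 0.62 for C1qc on the log2 scale, in the test of the difference itself given above.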

How the results depend on the processing

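The 5 members called with age in cord, and the absence of calls with exercise in cord and with age in both muscles, were the same under every alternative run. The count for exercise in gastrocnemius was 2 without the libraries that stood apart. C1s1 in exercised against 10-month gastrocnemius was not called with no filter on low counts, without those libraries or with only the compared groups (0 members each), and with a library left out 0 to 2 members were called. The cause was not tested. The difference in ageing between cord and muscles was called for 1 member (C1qa) with library totals alone, 1 (C1qa) without the libraries that stood apart and 4 without cord library 3.1. Relative to marker lists 15 of 56 tests passed without the libraries that stood apart, 8 of the added ones in muscle with age. C2 in cord against muscle reversed with library totals alone (0.62, 0.84 and 0.83 in the 3 states).

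The same numbers occur in the tissues, but same-numbered libraries did not all deviate together. Their correlation across genes had a median of 0.40 between gastrocnemius and quadriceps (29 of 31 over 0.1, 23 best matched to their own number), 0.10 between cord and gastrocnemius (18 of 33, 5 best matched) and 0.08 between cord and quadriceps (15 of 31, 9 best matched). Between libraries of unlike numbers the median was -0.01, -0.02 and -0.02. The main fits did not treat the numbers as pairs, so their tests between tissues take no account of this likeness. With the number as a replicate block, 1 member instead of 0 was called between the exercised muscles (C4b, -0.34, adjusted p = 0.0333), 4 instead of 3 between the sedentary muscles at 18 months (C1ra added), and 3 instead of 2 for the ageing difference of cord against muscle (C4b added). Counts over all genes moved more: for exercise in gastrocnemius 16 genes were called, and 3 to 336 with a library left out. Low counts limit C2 and C1ra in cord, with as few as 64 and 58 counts.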
